A study of Homo sapiens with 9 samples.

Results

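Collagen genes were measured by RNA sequencing in OVCA433 cells, an established line of ovarian serous adenocarcinoma. A gene was taken as a collagen gene when it was protein-coding and its symbol in the count table consisted of COL, a type number, A and a chain number, which gave 44 genes among the 58676 of the table. Of these, 27 had at least 10 counts in at least 3 libraries, and these are described by class. Control cells are labelled WT and the others MPZL3 knock-down, and all were of the same line, kept in the same RPMI medium with serum and transduced by lentivirus; the time of harvest is not given in the sources used here. The 3 groups, with 3 libraries each, were: cells with a control vector, cells with hairpin #1 (an shRNA, a short RNA that silences a gene) against MPZL3, and cells with hairpin #3 against the same gene. MPZL3 encodes a predicted cell adhesion protein. The control is called an empty vector in the study's sequencing methods, and whether it expresses a hairpin is uncertain. The libraries of a group, marked A, B and C, are described as biological replicates, but separate transductions are not stated, so the p-values below measure the spread between these libraries, part of which may be technical.

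Collagens are proteins of the extracellular matrix in which 3 chains wind around each other into a triple helix. Fibrillar collagens (types I, III, V, XI and others) align into the fibrils that give tissue its tensile strength, whereas type IV collagen forms the sheet of the basement membrane on which epithelial cells rest. Type VI collagen forms beaded filaments between cells and fibrils, fibril-associated collagens decorate the surface of fibrils, and transmembrane collagens such as type XVII anchor epithelial cells to the matrix below. Many of these proteins are made of different chains encoded by different genes, so the levels of partner chains are of interest side by side.

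Library totals ranged from 16850854 to 23890191 counts. Levels are given as counts per 1000000 (CPM) after scaling of the libraries by TMM, a normalization that equalizes the bulk of genes. MPZL3, the targeted gene, was at 15.6, 21.9 and 21.0 CPM in the control libraries, at 1.87, 1.98 and 1.80 CPM with hairpin #1 and at 1.94, 0.988 and 1.80 CPM with hairpin #3. Of 10 markers of ovarian serous carcinoma, WT1 was at 0 in all 9 libraries, and the summed level of the list was 10390 to 12430 CPM in control, 5354 to 6782 with hairpin #1 and 5298 to 5893 with hairpin #3. Of the 9 tested, 5 were called lower and 1 higher in the pooled comparison. CDH1, EPCAM, KRT18 and KRT8 fell (log2 fold changes of -11.05, -5.81, -1.41 and -1.18). MUC16 fell from 69, 42 and 86 counts in control to 0 in every knockdown library, at least 21.2-fold against 3 counts per library. PAX8, a lineage factor of these tumors, rose (1.07). CDH1 and MUC16 reached 10 counts in control libraries only, so they had to differ to be tested. Of 8 fibroblast markers, the defining genes DCN and DPT were at 0 in all 9 libraries, and the summed level was 21.3 to 22.4 CPM in control, 21.0 to 33.5 with hairpin #1 and 100.1 to 112.8 with hairpin #3. PDPN of this list, at a mean of 12.6 CPM in control, was called lower with hairpin #1 (0.270 CPM, log2 fold change of -5.47) and higher with hairpin #3 (78.1 CPM, 2.63). PDGFRB and LUM rose in the pooled comparison (4.78 and 1.09), but LUM was not called with hairpin #3 (0.66). Mesothelial markers summed to 132.8 to 165.5, 135.3 to 143.8 and 187.1 to 224.3 CPM in the same order. These sums hold opposite changes, with UPK3B called lower and BNC1 higher in the pooled comparison (-6.49 and 1.83). MSLN and LRRN4 were called higher with hairpin #3 alone (1.12 and 1.26). The 5 endothelial markers summed to 0.946 to 1.65 CPM in control, 4.86 to 7.25 with hairpin #1 and 6.04 to 8.52 with hairpin #3. Of these, KDR (2.84) and CDH5 were called higher in the pooled comparison, VWF and TEK were not called and PECAM1 was not tested. CDH5 had 1, 2 and 3 counts in control and reached 10 counts in knockdown libraries only, so it had to differ to be tested. Against 3 counts per control library it was at least 15.7-fold higher with hairpin #1 and at least 25.4-fold with hairpin #3. The leukocyte markers summed to 0.335 to 0.775, 0.214 to 0.935 and 0 to 0.765 CPM. The part of these markers in the collagen results was not tested. In RNA from whole cultures, fewer cells of a type and less RNA per cell cannot be told apart.

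Transcripts of the fibrillar and type VI collagens and of 2 of 3 fibril-associated collagens rose after MPZL3 knockdown, while no basement membrane chain was called higher in the pooled comparison. A gene was called when its adjusted p-value (edgeR's quasi-likelihood test, Benjamini-Hochberg over all 15975 tested genes) was under 0.05 and its log2 fold change was at least 1 in size. With both hairpins pooled against control, 17 of the 27 members were higher, against 7.26% of all tested genes, and 4 were lower, against 7.40%. With hairpin #1, 17 members were higher (background 7.76%) and 3 lower (8.55%), and with hairpin #3, 15 were higher (7.46%) and 4 lower (7.83%). Both comparisons used the same 3 control libraries. The median log2 fold change of the members was 1.39 pooled, 1.31 with hairpin #1 and 1.49 with hairpin #3, beside medians of 0.0045, 0.00088 and -0.0029 over all tested genes. COL1A2 and COL3A1 reached 10 counts in knockdown libraries only, and COL28A1 in control libraries only, so these 3 had to differ to be included. Among the other 24 members, 15 were higher and 3 lower in the pooled comparison, with a median of 1.28. Of the same 24, 15 were higher and 2 lower with hairpin #1 (median 1.3). With hairpin #3, 13 were higher and 3 lower (median 1.4). Without the 3 libraries marked A the pooled counts were again 17 and 4, but the genes were not all the same. COL4A1, a basement membrane chain, was then called higher (log2 fold change of 1.11, adjusted p = 0.00191).

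**Figure D1:**
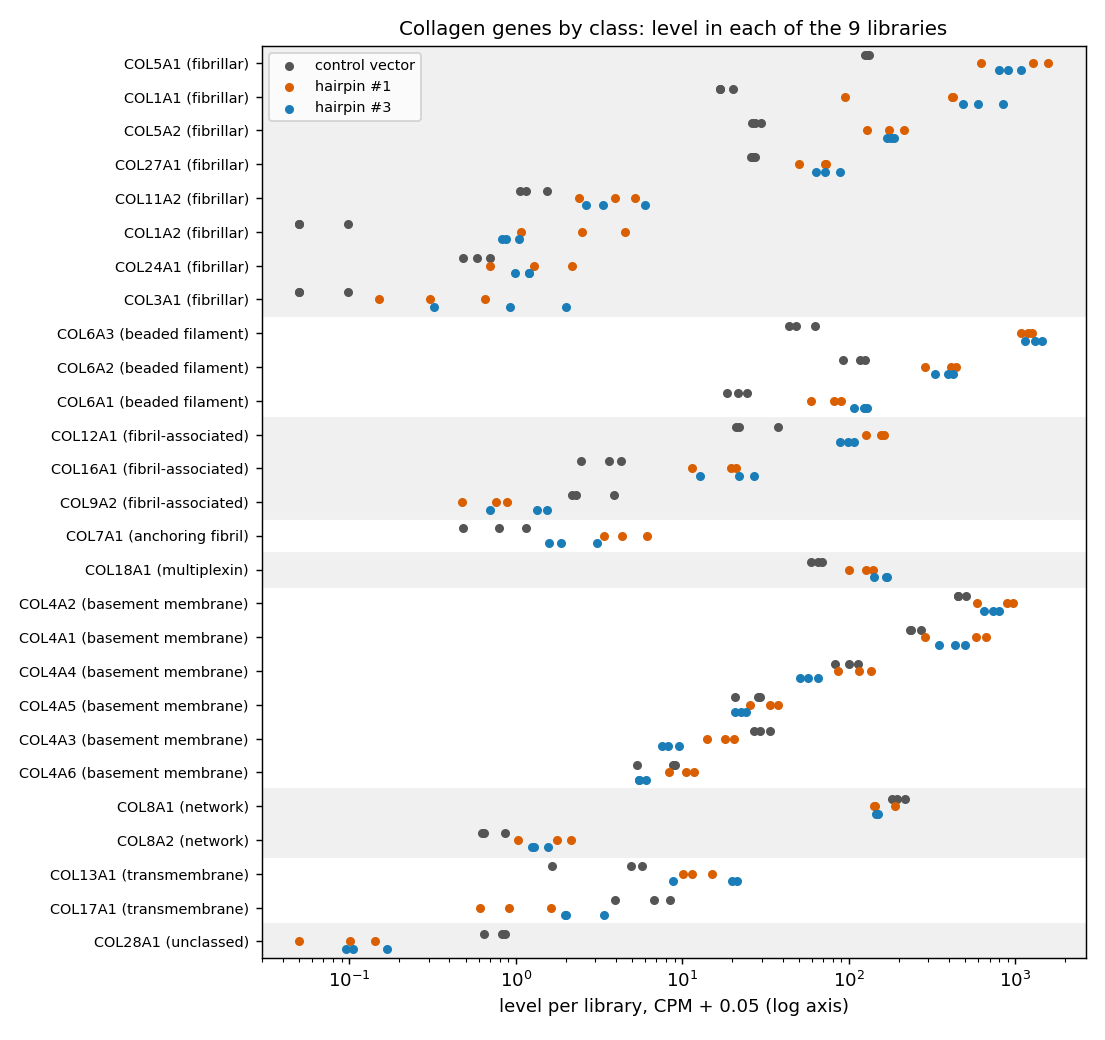
Level of the 27 collagen genes in each of the 9 libraries, as CPM plus 0.05 on a log axis, grouped by class, with 1 point per library colored by group. The control points of the fibrillar and beaded filament genes lie to the left of the knockdown points, whereas COL4A3, COL9A2, COL17A1 and COL28A1 show the opposite order.

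Of 11 fibrillar genes 8 reached the minimum, and these 8 were called higher in the pooled comparison. COL1A2 and COL3A1 among them reached it in knockdown libraries only, so they had to differ to be included. COL1A1 (ENSG00000108821, chr17:50183289-50201632 on hg38), the main chain of type I collagen, stood at 20.1, 16.7 and 16.9 CPM in control, at 94.9, 417 and 424.7 CPM with hairpin #1 and at 483.9, 592.9 and 846.6 CPM with hairpin #3. Library A of hairpin #1 was thus well below its replicates, but the groups did not overlap with control. The pooled log2 fold change of COL1A1 was 4.74 (SE 0.580, adjusted p = 5.89e-05), with 4.13 for hairpin #1 and 5.16 for hairpin #3. COL5A1 (ENSG00000130635, chr9:134641774-134844843), the chain of type V collagen that helps to start fibrils, was at 125.5, 132 and 129.7 CPM in control, 619, 1572 and 1271 CPM with hairpin #1, and 798.9, 909 and 1087 CPM with hairpin #3 (pooled log2 fold change 3.01, SE 0.274, adjusted p = 5.21e-06). Its partner COL5A2 moved from 27.4, 26.1 and 29.8 CPM to 129, 214.2 and 173.9 CPM and to 168.9, 180.1 and 187 CPM (2.66, SE 0.152, adjusted p = 9.89e-08). COL5A1 and COL5A2 differed between the hairpins by -0.31 (SE 0.244) and 0.052 (SE 0.146) on the log2 scale, neither past the threshold (adjusted p = 0.492 and 0.879).

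COL27A1, a fibrillar collagen known from cartilage, showed a smaller change. It was at 27.4, 26.6 and 25.9 CPM in control, 50.5, 71.6 and 73.1 CPM with hairpin #1 and 63.2, 72.0 and 89.1 CPM with hairpin #3 (1.39, SE 0.153, adjusted p = 2.47e-05). The 50 tested genes nearest to COL27A1 on chromosome 9 had a median of 0.36 in the same comparison, which was the highest such median of any member (range -0.09 to 0.36). With that median subtracted, hairpin #1 gave COL27A1 a log2 fold change of 0.96, under the fold threshold. COL11A2 (mean 1.20 CPM in control, 3.81 and 3.94 CPM with the hairpins, 1.69, SE 0.340, adjusted p = 0.00233) and COL24A1 (0.537, 1.35 and 1.08 CPM, 1.17, SE 0.387, adjusted p = 0.0361) were low in all libraries. The COL24A1 call was lost when any of control libraries A, B or C, hairpin #1 libraries B or C, or hairpin #3 libraries B or C was left out (adjusted p between 0.0507 and 0.132), or without hairpin #1 library B by the fold as well (0.93).

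Type I collagen is usually built from 2 chains of COL1A1 and 1 chain of COL1A2, although trimers of COL1A1 chains alone also form. COL1A2 had 1, 0 and 0 counts in the control libraries and reached 1.03, 4.48 and 2.44 CPM with hairpin #1 and 1.00, 0.823 and 0.783 CPM with hairpin #3. Against a floor of 3 counts per control library this was at least 18.1-fold higher with hairpin #1 and at least 5.95-fold higher with hairpin #3 (pooled adjusted p = 9.64e-04). Without library B of hairpin #1 the first bound was 11.9-fold. Per kilobase of the gene length in the count table, COL1A1 exceeded COL1A2 by 104.9 to 197.5 times in the hairpin #1 libraries. In the hairpin #3 libraries it did so by 549.6 to 1229 times. COL1A2 had between 15 and 88 counts in these libraries. COL1A2 overlaps the antisense gene AC002074.1, which had 18 counts over all libraries against 217 for COL1A2, and reads of the 2 cannot be told apart because the libraries carried no strand. COL3A1, whose product forms homotrimers in fibrils with type I collagen, had 1, 0 and 0 counts in control, was at 0.608, 0.102 and 0.257 CPM with hairpin #1 and at 1.94, 0.274 and 0.875 CPM with hairpin #3. It was at least 2.21-fold and at least 7.06-fold higher, bounds that came to 1.23-fold and 3.93-fold without library A of the respective hairpin. Its pooled call (adjusted p = 0.0133) was lost without control library B (adjusted p = 0.0576) or C (0.0564). With hairpin #1 alone it was lost without control library B or C or hairpin #1 library A or C (adjusted p between 0.0514 and 0.123). With COL1A2 and COL3A1 at these bounds, the median log2 fold change of the fibrillar class was 2.44 pooled, 2.14 with hairpin #1 and 2.63 with hairpin #3, in place of 2.84, 2.90 and 2.76 with the fitted values.

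The 3 type VI members, which form beaded filaments, were called higher with each hairpin. COL6A3 (ENSG00000163359, chr2:237324003-237414375), the longest of the 3 chains, was at 43.5, 48.5 and 62.7 CPM in control, 1080, 1258 and 1185 CPM with hairpin #1, and 1149, 1315 and 1451 CPM with hairpin #3. No knockdown library came near the control range, and the hairpins overlapped each other (pooled log2 fold change 4.59, SE 0.165, adjusted p = 2.22e-09). COL6A2 was at 91.9, 116.8 and 125.1 CPM, at 285.1, 411.4 and 442.8 CPM, and at 327.6, 392.2 and 420.3 CPM (1.77, SE 0.161, adjusted p = 5.03e-06). COL6A1, its neighbor on chromosome 21, was at 18.4, 21.4 and 24.4 CPM, at 59.2, 81.8 and 89.4 CPM, and at 107.1, 123.9 and 127.9 CPM (2.20, SE 0.236, adjusted p = 2.07e-05). For COL6A1 the hairpin groups were separate, with hairpin #3 higher by 0.64 on the log2 scale (SE 0.147, adjusted p = 0.0127), below the fold threshold.

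The type VI protein contains the products of COL6A1, COL6A2 and COL6A3 in equal numbers. Per kilobase, COL6A3 stood at 0.114 to 0.137 of the level of COL6A2 in control libraries and at 0.734 to 1.04 of it in knockdown libraries. COL6A1 stood at 0.185 to 0.203 of COL6A2 in control, at 0.201 to 0.209 with hairpin #1 and at 0.307 to 0.330 with hairpin #3. The first ratio therefore separated knockdown from control, and the second separated hairpin #3 from the other groups. These ratios depend on the gene lengths given in the count table, whose derivation is not stated.

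**Figure D2:**
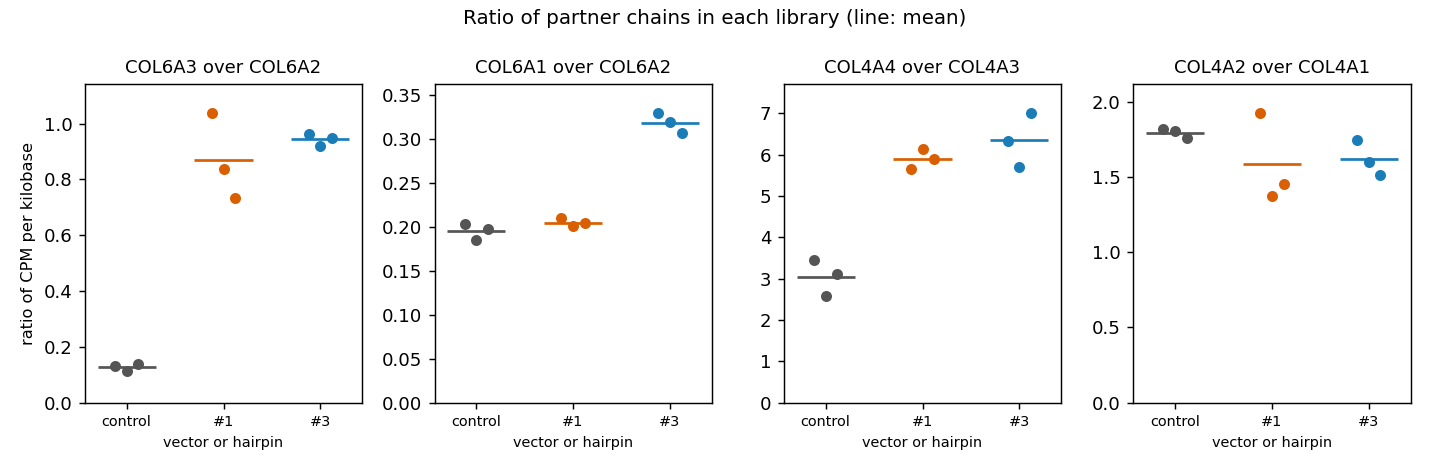
Ratios of CPM per kilobase for 4 pairs of partner chains in each library, with 1 point per library and a line at the group mean. COL6A3 over COL6A2 lies between 0.114 and 0.137 in control and between 0.734 and 1.04 in knockdown, and COL4A4 over COL4A3 lies between 2.59 and 3.45 in control and between 5.65 and 7.02 in knockdown.

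Of the fibril-associated members, COL12A1 and COL16A1 were higher and COL9A2 was lower. COL12A1, which coats type I fibrils, was at 37.4, 20.9 and 21.98 CPM in control, 163.7, 155.6 and 126.5 CPM with hairpin #1 and 106.9, 88.9 and 99.2 CPM with hairpin #3 (2.20, SE 0.253, adjusted p = 3.49e-05). COL16A1 was at 2.42, 3.58 and 4.25 CPM, at 11.4, 19.5 and 21.1 CPM, and at 12.7, 21.9 and 26.7 CPM (2.46, SE 0.303, adjusted p = 6.08e-05). Both stayed clear of the control range in all knockdown libraries. COL9A2, a chain of the type IX collagen of cartilage fibrils, fell from a mean of 2.73 CPM to 0.661 and 1.14 CPM (-1.60, SE 0.356, adjusted p = 0.00453), but its call with hairpin #3 was lost without control library C (adjusted p = 0.0906) or hairpin #3 library A (0.0551).

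COL7A1, which forms the anchoring fibrils under epithelia, was low in control (mean 0.761 CPM) and averaged 4.57 CPM with hairpin #1 and 2.13 CPM with hairpin #3 (pooled log2 fold change 2.14, SE 0.478, adjusted p = 0.00463). Its call with hairpin #3 was lost without library C of that hairpin (adjusted p = 0.0541). COL18A1, a basement membrane proteoglycan core whose end fragment is endostatin, was at 59.6, 65.5 and 68.9 CPM in control, 100.7, 139.8 and 126.3 CPM with hairpin #1, and 141.3, 166.8 and 170.6 CPM with hairpin #3. All knockdown libraries were above control, and the change was close to the fold threshold (1.12, SE 0.155, adjusted p = 1.52e-04). After subtraction of the median of its 50 neighbors (0.21) it was 0.91 and no longer called, and with hairpin #1 it was under the threshold (0.92) unless library A was left out (1.04). COL18A1 shares 20149 bases with SLC19A1 on the opposite strand, a gene with 10406 counts over all libraries against 20986 for COL18A1, and how the authors' counting divided reads there is not given.

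Of the 6 basement membrane members, none was called higher and 1 was called lower in the pooled comparison. COL4A1 and COL4A2, the pair of chains found in nearly all basement membranes, averaged 246.9 and 470.7 CPM in control, 509.1 and 817 CPM with hairpin #1 and 427 and 729.9 CPM with hairpin #3. Both lay above control in 6 of 6 knockdown libraries with changes under the fold threshold (0.92, SE 0.228, adjusted p = 0.00848 and 0.72, SE 0.150, adjusted p = 0.00309). COL4A1 passed the fold threshold in the pooled comparison without hairpin #1 library A (1.03) or without the 3 libraries marked A (1.11). It also passed with hairpin #1 alone (1.04), where it fell below the threshold without library B (0.81) or C (0.94) of that hairpin. The 2 genes lie head to head on chromosome 13 and share 1338 bases in the annotation, so reads there are uncertain.

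COL4A3, COL4A4 and COL4A5 encode the chains of the specialized basement membrane of the kidney glomerulus. COL4A3 (ENSG00000169031, chr2:227164565-227314792) was at 26.9, 29.3 and 33.5 CPM in control, at 14.1, 20.3 and 17.9 CPM with hairpin #1 and at 9.53, 8.18 and 7.50 CPM with hairpin #3. The 3 groups did not overlap. With both hairpins pooled its log2 fold change came to -1.21 (SE 0.281, adjusted p = 0.00596), with -0.78 (SE 0.148) for hairpin #1 and -1.83 (SE 0.157) for hairpin #3. COL4A4, its head-to-head neighbor on chromosome 2, did not pass in the pooled comparison (-0.21, SE 0.278, adjusted p = 0.602), with means of 98.6, 112.2 and 57.8 CPM in the 3 groups. With hairpin #3 alone its value was -0.77 (SE 0.163, adjusted p = 0.00229). Per kilobase, COL4A4 exceeded COL4A3 by 2.59 to 3.45 times in control and by 5.65 to 7.02 times in knockdown. COL4A3 overlaps the antisense gene AC097662.2, which had 242 counts against 3436. COL4A5 and COL4A6, a head-to-head pair on the X chromosome, did not pass (0.066, SE 0.194, adjusted p = 0.832 and 0.041, SE 0.280, adjusted p = 0.928).

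Sequences before the start were available for 21 of the 27 members in RefSeq on GRCh38.p14. They were not available for COL1A1, COL1A2, COL3A1, COL5A2, COL6A1 and COL8A1. RefSeq starts differ from the gene bounds of the count table, so the stretches shown are the longest runs within the 250 bases before the RefSeq start that lie outside the gene as the count table bounds it and outside every exon of GENCODE 29. They belong to members that moved in opposite directions: COL12A1 and COL13A1, which rose, and COL4A3 and COL17A1, which fell. Capitals mark matches on either strand to the letters of 4 motifs. These are the E2 box, written CAGGTG, the TATA box, searched for as TATAAA, the GC box, searched for as GGGCGG, and the CCAAT box. COL12A1 is chr6:75206054-75206303 on the minus strand (250 bases), COL13A1 is chr10:69801656-69801866 on the plus strand (211 bases), COL4A3 is chr2:227164454-227164564 on the plus strand (111 bases) and COL17A1 is chr10:104086003-104086130 on the minus strand (128 bases).
COL12A1: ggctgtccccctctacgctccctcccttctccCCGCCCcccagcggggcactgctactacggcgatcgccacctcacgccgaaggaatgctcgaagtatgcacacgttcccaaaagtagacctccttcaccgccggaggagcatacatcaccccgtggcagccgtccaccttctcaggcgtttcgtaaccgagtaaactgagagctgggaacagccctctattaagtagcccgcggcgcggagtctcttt
COL13A1: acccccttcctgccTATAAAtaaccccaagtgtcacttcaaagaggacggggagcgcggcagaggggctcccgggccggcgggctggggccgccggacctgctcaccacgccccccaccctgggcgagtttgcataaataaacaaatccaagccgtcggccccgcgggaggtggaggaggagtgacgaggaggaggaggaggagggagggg
COL4A3: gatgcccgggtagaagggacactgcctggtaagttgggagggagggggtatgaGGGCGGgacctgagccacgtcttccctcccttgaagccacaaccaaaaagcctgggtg
COL17A1: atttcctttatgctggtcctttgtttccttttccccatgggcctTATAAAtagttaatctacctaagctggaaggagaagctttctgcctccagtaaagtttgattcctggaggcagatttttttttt
The stretches of COL12A1 and COL4A3 each held 1 GC box, and those of COL13A1 and COL17A1 each held 1 TATA box. Over all 35093 windows of the 250 bases before a RefSeq start, 17.5% held the E2 box, 10.7% the TATA box, 42.6% the GC box and 32% CCAAT. Of the 28 windows of the members, 5 held the E2 box (COL4A3, COL4A4, COL8A2, COL9A2 and COL16A1), 5 the TATA box, 18 the GC box and 7 CCAAT. COL4A3 and COL9A2 were called lower, COL8A2 and COL16A1 higher and COL4A4 neither. Among the members with a sequence, windows with the E2 box thus belonged to members of either direction. The COL8A2 call was lost when some single libraries were left out, as given below. The stretch of COL4A3 shown above held no E2 box. A match to these letters is a description of the sequence, not of binding.

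Among the other classes the members differed in direction. Of the network-forming pair, COL8A1 averaged 198.9 CPM in control and 158.6 and 147.4 CPM with the hairpins (-0.38, SE 0.107, adjusted p = 0.0174, under the fold threshold), and COL8A2 averaged 0.664, 1.59 and 1.32 CPM (1.13, SE 0.311, adjusted p = 0.0153). The COL8A2 call was lost without control library A (adjusted p = 0.0614) or B (0.0703) or hairpin #1 library B (log2 fold change of 1.00, just under the threshold), and with hairpin #1 without that library (adjusted p = 0.0541). COL13A1, a transmembrane collagen of cell-matrix junctions, rose from 1.60, 4.88 and 5.69 CPM to 10.1, 11.5 and 15.1 CPM with hairpin #1 and to 8.77, 19.9 and 21.4 CPM with hairpin #3 (1.83, SE 0.400, adjusted p = 0.00402). COL17A1, the transmembrane collagen of epithelial hemidesmosomes, fell from 3.92, 6.72 and 8.41 CPM to 1.59, 0.560 and 0.858 CPM with hairpin #1 and to 1.94, 3.35 and 1.93 CPM with hairpin #3 (-1.91, SE 0.417, adjusted p = 0.00409). Neither gene overlapped between control and knockdown. COL28A1, left unclassed, had 16, 12 and 17 counts in control and at most 2 in any knockdown library, at least 4.85-fold lower.

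**Figure D3:**
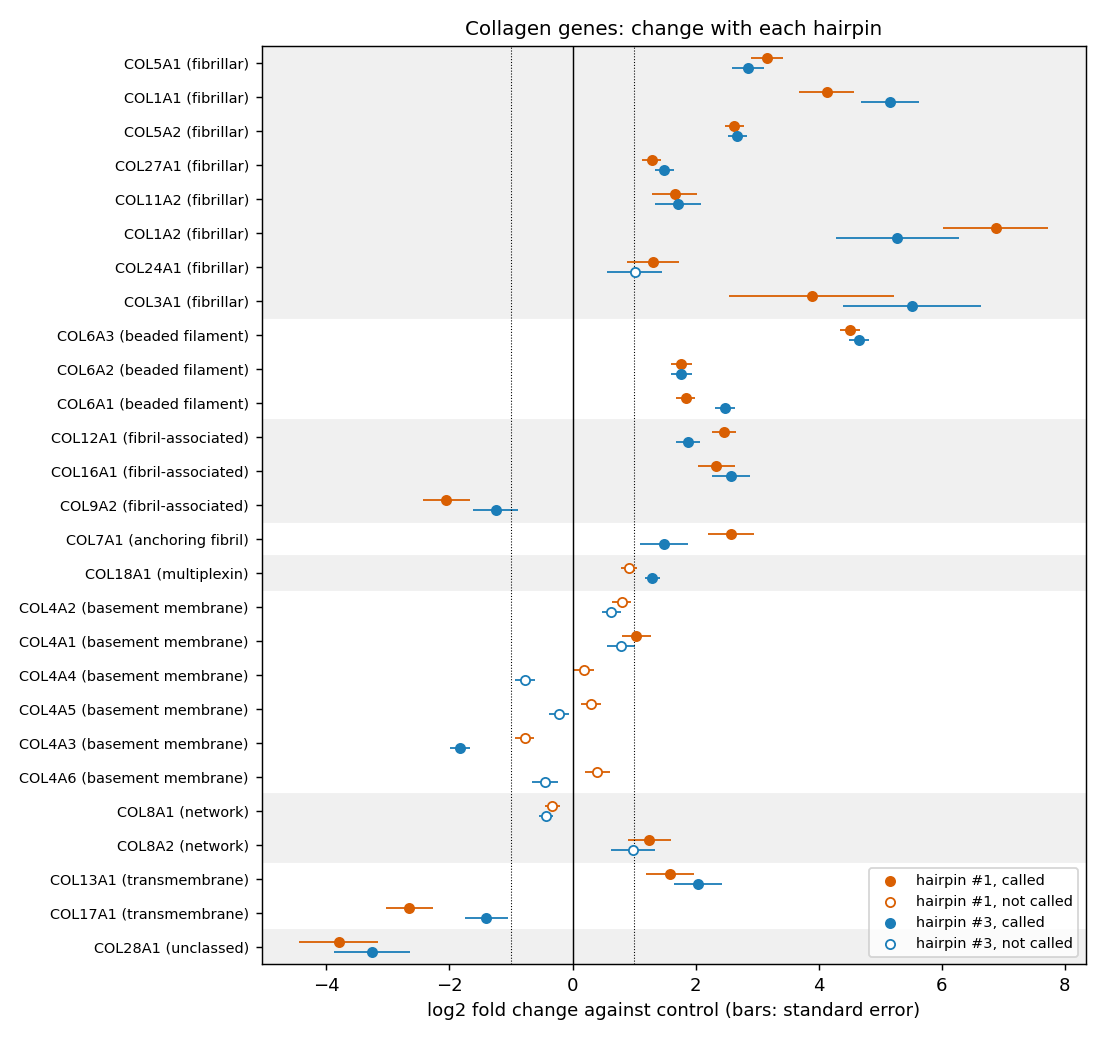
Log2 fold change of each collagen gene against control with hairpin #1 and hairpin #3, with bars for the standard error, filled points for called genes and dotted lines at the fold threshold of 1. The fibrillar and type VI points lie to the right of the line at 1, with COL24A1 uncalled for hairpin #3 (1.01), and the basement membrane points lie between -1.83 (COL4A3 with hairpin #3) and 1.04 (COL4A1 with hairpin #1), both of which were called. The values of COL1A2, COL3A1 and COL28A1 depend on the small count added in the fit because 1 of their groups was at the floor.

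The direct comparison of the hairpins called 0 members higher with hairpin #3 (background 2.22%) and 2 lower (1.72%) by edgeR's quasi-likelihood test, with 12 of the 27 at an unadjusted p under 0.05 in either direction, against 25.0% of all tested genes. With the Wald test of DESeq2, COL17A1 was called higher (adjusted p = 0.0173) and COL7A1 also lower (0.0222). COL4A3 was lower with hairpin #3 by 1.06 on the log2 scale (-1.06, SE 0.157, adjusted p = 7.25e-04), and its value was under the fold threshold without hairpin #1 library B (-0.93) or hairpin #3 library C (-0.97). COL1A2 was also lower with hairpin #3 (-1.60, SE 0.471, adjusted p = 0.0434). This call was lost without control library B (adjusted p = 0.0578) or C (0.0518), or hairpin #1 library B (-1.003, 0.226) or C (0.0865). It was also lost without hairpin #3 library A (0.0689), B (0.141) or C (0.128), and with only the 2 groups compared in the fit (0.05565). COL4A4 and COL4A6 were lower by less than the fold threshold (-0.96 and -0.84, adjusted p = 0.00192 and 0.0186), and COL4A4 passed it without hairpin #1 library A (-1.12) or hairpin #3 library A (-1.06).

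Larger but uncalled differences between the hairpins were found for COL3A1 (1.63, SE 0.685, adjusted p = 0.156), COL17A1 (1.25, SE 0.406, adjusted p = 0.0660), COL7A1 (-1.09, SE 0.330, adjusted p = 0.0504) and COL1A1 (1.04, SE 0.395, adjusted p = 0.115). COL17A1 passed without control library A (adjusted p = 0.0370) or hairpin #1 library A (1.73, 0.0175). COL7A1 passed without control library A (0.0334) or C (0.0455), hairpin #1 library A (0.0236) or hairpin #3 library C (0.0279), and also when library totals (0.0492), no filter on low counts (0.00112) or the 2 groups compared alone (0.0481) were used. With no filter on low counts, COL1A1 (adjusted p = 2.44e-16), COL3A1 (0.0422) and COL17A1 (4.19e-04) passed as well. With the replicate letter as a block in edgeR's quasi-likelihood test, COL1A1 (adjusted p = 0.00963), COL3A1 (0.0153), COL17A1 (0.0397) and COL7A1 (0.00231) passed. In contrast, COL6A2 differed by 0.0011 (SE 0.164), COL6A3 by 0.15 (SE 0.138) and COL11A2 by 0.058 (SE 0.331).

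The order of the levels within the family also changed. Per kilobase, COL4A2 (54.1 CPM per kilobase) and COL4A1 (30.2) led in control, followed by COL8A1 (21.1), COL6A2 (20.6) and COL5A1 (11.5). With hairpin #1 the leading genes were COL5A1 (103.1), COL4A2 (93.8), COL6A2 (70.5), COL4A1 (62.2) and COL6A3 (59.8), and with hairpin #3 COL4A2 (83.8), COL5A1 (83.3), COL6A2 (70.6), COL6A3 (66.5) and COL1A1 (65.3). COL6A3 and COL1A1, at 2.63 and 1.82 CPM per kilobase in control, were not among the first 8 there. Summed over the 44 genes, collagen transcripts made up 1524, 1522 and 1685 CPM in control, 3772, 6395 and 5757 CPM with hairpin #1 and 4634, 5300 and 6085 CPM with hairpin #3. The 5 most abundant members of a library held 72.6% to 77.0% of its collagen counts. The fibrillar class went from 202 to 203.9 CPM in control to between 898.1 and 2285 CPM in knockdown, and the basement membrane class from between 840.2 and 956.9 to between 1013 and 1834 CPM. The network class was at 183.2 to 219 CPM in control and at 144.1 to 192.6 CPM in knockdown, overlapping.

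Collagen chains are hydroxylated and folded in the endoplasmic reticulum, exported in large vesicles, trimmed of their propeptides and cross-linked outside the cell, where receptors bind them and proteases cleave them. Of 55 genes listed for these steps 47 were tested, of which 13 were higher and 2 lower in the pooled comparison, 12 and 2 with hairpin #1, and 15 and 2 with hairpin #3. In the pooled comparison 7.26% of all tested genes were higher and 7.40% lower. These shares were 7.76% and 8.55% with hairpin #1, and 7.46% and 7.83% with hairpin #3. The median pooled log2 fold change of the 47 genes was 0.58, beside 0.0045 over all tested genes.

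Among 10 genes of prolyl hydroxylation, P3H1, which hydroxylates single prolines of the chains, was the 1 gene called in the pooled comparison. It was at 33.3, 40.7 and 38.6 CPM in control, 129.3, 168.5 and 156.7 CPM with hairpin #1, and 130.8, 129.9 and 130.7 CPM with hairpin #3 (1.91, SE 0.124, adjusted p = 2.85e-07). With hairpin #3 alone P3H3 (1.20) and P4HA3 (2.28) were also called. Of 5 genes that hydroxylate or glycosylate lysines, PLOD2, the enzyme that prepares telopeptide cross-links, was called, and its values were 109.8, 124.6 and 119.8 CPM, 380.5, 572.1 and 447.2 CPM, and 323.3, 327.1 and 294.4 CPM (1.73, SE 0.202, adjusted p = 4.07e-05). PLOD1 and PLOD3 had log2 fold changes of 0.07 and -0.13 and were not called. P3H1 and PLOD2 were above control in every knockdown library.

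Of 9 genes of folding and export, SEC23A, a coat protein of export vesicles, was called (58.4, 46.3 and 54.1 CPM in control, 135.9, 129.7 and 121.6 CPM with hairpin #1, 99.3, 85.9 and 87.2 CPM with hairpin #3). Its change was close to the threshold (1.05, SE 0.167, adjusted p = 4.16e-04) and fell under it without control library B (0.96), hairpin #1 library A (0.98) or hairpin #1 library B (1.00). The value of SEC23A was 1.29 with hairpin #1 and 0.78, under the fold threshold, with hairpin #3. CREB3L1, a transcription factor of the secretory pathway with means of 1.47, 4.23 and 3.37 CPM, was called as well (1.37, SE 0.371, adjusted p = 0.0140), though not without control library A (adjusted p = 0.0659) or B (0.0636), and with hairpin #3 not without its library C (0.165). It is named outside the rule for pathway genes, as are ITGA2 and MMP1 below, because the count it belongs to is small.

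Among the 6 tested genes that remove propeptides, ADAMTS2 and ADAMTS3, both procollagen N-proteinases, were called. ADAMTS3 was at 11.96, 10.8 and 9.89 CPM in control, 34.8, 50.7 and 34.0 CPM with hairpin #1 and 65.1, 54.8 and 46.6 CPM with hairpin #3 (2.13, SE 0.215, adjusted p = 1.22e-05). ADAMTS2 had a mean under 1 CPM in control and rose by 3.64 (SE 0.618, adjusted p = 7.16e-04). Of the 4 tested cross-linking oxidases, LOX and LOXL1 were called. LOX was at 15.3, 23.1 and 29.3 CPM, at 116, 209.6 and 175.1 CPM, and at 87.0, 150.4 and 144 CPM (2.70, SE 0.290, adjusted p = 2.09e-05). LOXL1 was at 26.8, 28.3 and 26.1 CPM, at 93.4, 93.4 and 103.3 CPM, and at 96.8, 83.0 and 88.0 CPM (1.78, SE 0.0944, adjusted p = 5.03e-08). For ADAMTS2, ADAMTS3, LOX and LOXL1 no knockdown library reached down to the control range. LOXL2 (0.97) and LOXL3 (-0.88) stayed under the fold threshold. In 6 of 6 knockdown libraries LOXL2 lay above control and LOXL3 below it.

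The receptors moved in both directions, with 2 of 8 tested genes higher and 2 lower. ITGA11, an integrin chain that binds fibrillar collagen, was at or under 0.348 CPM in control, at 3.88, 11.1 and 4.37 CPM with hairpin #1 and at 4.35, 5.21 and 2.12 CPM with hairpin #3 (5.09, SE 0.713, adjusted p = 1.70e-04). MRC2, a receptor that takes up collagen for degradation, was at 97.6, 97.7 and 119.2 CPM in control and between 215.8 and 326.6 CPM in knockdown (1.37, SE 0.140, adjusted p = 1.43e-05). DDR1, a receptor kinase of epithelial cells, fell from 238.7, 296 and 350.1 CPM to between 99.4 and 155.4 CPM (-1.20, SE 0.144, adjusted p = 4.88e-05), and with hairpin #3 its value was -0.99 without control library C. ITGA2, an integrin chain that binds collagen in epithelial cells, fell from 243.8, 238.9 and 218.7 CPM to between 74.0 and 134.9 CPM (-1.18, SE 0.170, adjusted p = 2.10e-04). Without the 3 libraries marked A the value of ITGA2 was -0.95, and with hairpin #3 it was -0.97 without library A of that hairpin.

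Of the 5 tested collagenases and gelatinases, MMP14, MMP2 and MMP9 were called. MMP14, a membrane-bound collagenase, was at 57.9, 65.0 and 73.0 CPM in control, 227.3, 327.6 and 391.2 CPM with hairpin #1, and 337.7, 354 and 409.1 CPM with hairpin #3 (2.39, SE 0.180, adjusted p = 1.04e-06). MMP2, a gelatinase that MMP14 activates, was at 17.1, 16.6 and 14.9 CPM, at 68.2, 134.9 and 100.7 CPM, and at 45.7, 67.5 and 77.6 CPM (2.35, SE 0.297, adjusted p = 7.55e-05). MMP9 was at 11.5, 19.2 and 15.3 CPM, at 23.3, 23.9 and 27.6 CPM, and at 34.4, 43.3 and 42.7 CPM. Its change (1.08, SE 0.241, adjusted p = 0.00444) fell under the threshold without control library A (0.91) or hairpin #3 libraries B (0.98) or C (0.99). The value of MMP9 was 0.70, under the fold threshold, with hairpin #1 and 1.39 with hairpin #3. MMP1 was the 1 pathway gene called between the hairpins: it had at most 2 counts in a library of hairpin #1 and 12, 16 and 91 counts with hairpin #3, at least 13.7-fold higher (adjusted p = 0.00440), or 5.64-fold without hairpin #3 library C. It had 0, 2 and 6 counts in control. MMP1 reached the minimum count of the filter in hairpin #3 libraries only, so it had to differ to be tested.

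**Figure D4:**
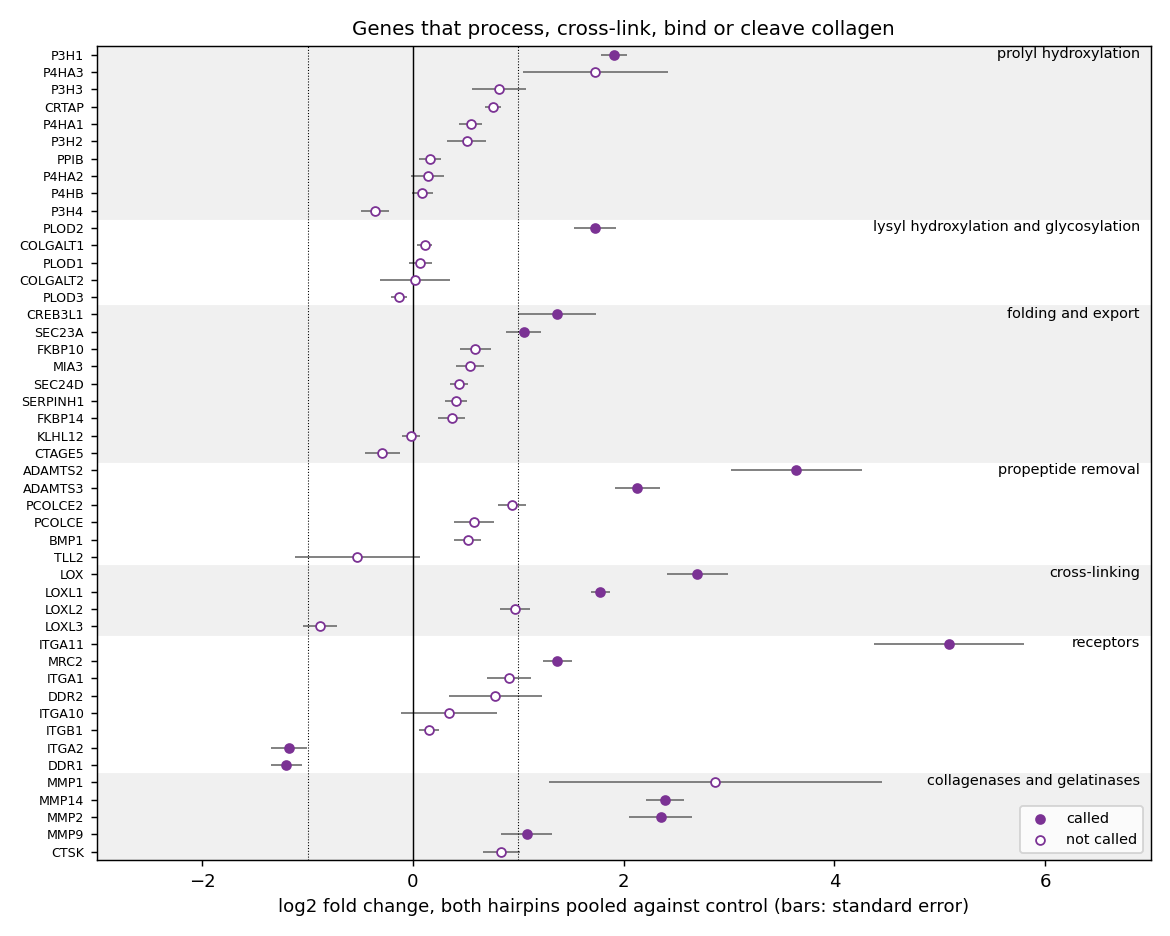
Pooled log2 fold change against control of the 47 tested genes that process, cross-link, bind or cleave collagen, by role, with bars for the standard error and filled points for called genes. Filled points are found in every role, all to the right of 1 except ITGA2 (-1.18) and DDR1 (-1.20).

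Of the 17 collagen genes below the minimum, COL6A5, COL9A1, COL14A1, COL20A1 and COL22A1 had no count in any library. COL9A3 came closest, with 23 and 22 counts in hairpin #3 libraries B and C and at most 8 in any other. COL25A1 had 10 and 9 counts in hairpin #1 libraries B and C, at most 3 in any other and 0 with hairpin #3. COL26A1 had between 2 and 9 counts in all libraries. The remaining 9 (COL2A1, COL5A3, COL6A6, COL10A1, COL11A1, COL15A1, COL19A1, COL21A1 and COL23A1) had at most 7 counts in any library. None of the 17 was tested.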

How the data were processed

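Reads from poly(A)-selected, non-directional libraries were aligned by the authors with HISAT2 (version 2.0.5 in the submitters' processing notes, which also name featureCounts 1.5.0-p3 and hg38). The deposited values are raw read counts per gene, 1 column per library, and were used as they are. The range of library totals is given above, and floors cover counting error only. Standard errors come from the fit and include the spread between libraries.

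Genes were filtered with filterByExpr (minimum count 10, minimum total 15), scaled by TMM and tested with edgeR 4.0.16 (glmQLFit, glmQLFTest, two-sided) in R 4.3.3. Both hairpins formed 1 arm against control. Each hairpin, and the difference between them, was tested in a second model that kept the 3 groups apart and used all libraries. Standard errors were computed from the F statistic. A gene was at the floor of a group when no library there had more than 3 counts, and its fold is a bound against 3 counts in each library.

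The members, classes, pathway genes and markers were chosen with earlier results of these data known. Values in every library are given for COL1A1, COL1A2 and COL3A1, for members called in the pooled comparison with a mean of at least 5 CPM in 1 group, for members called between the hairpins with at least 1 CPM, for MPZL3, and for up to 3 called pathway genes per role with at least 5 CPM. Alternatives were other scalings (DESeq2 size factors, library totals), other filters, a block on the replicate letter, DESeq2 1.42.0 with its Wald test, leaving out each library or the 3 A libraries, protein-coding genes alone, other thresholds, subtraction of the median of 50 neighboring genes, and other sets of groups in the fit. The fit was tested on simulated data. No replicate pair agreed within sampling noise (chi-square per gene 6.52 to 39.6). Promoter sequences are those of RefSeq on GRCh38.p14, and gene positions are those of the count table.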

Additional observations from a re-analysis of the deposited data

Results flagged for a closer look

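For 3 genes the effect of hairpin #3 differed from that of hairpin #1 in the direct test between the hairpins, and no explanation was tested. COL4A3 differed by -1.06 on the log2 scale (hairpin #3 minus hairpin #1), with means of 17.4 and 8.40 CPM for hairpins #1 and #3 beside 29.9 CPM in control. COL1A2 differed by -1.60, with means of 2.65 and 0.869 CPM and 1 count in control. The COL1A2 call was lost under 8 of 19 alternatives, and the COL4A3 call under 2 of 19. MMP1 differed by a fitted 5.73, a value that depends on the small count added in the fit, since hairpin #1 was at the floor. MMP1 reached the minimum count of the filter with hairpin #3 only, so it had to differ to be tested.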

How the results depend on the processing

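The pooled counts of 17 higher and 4 lower collagen genes stayed within 1.5 times under every alternative run, and no called fold change of a named gene changed sign. With 1 library left out they ranged from 14 to 18 and from 4 to 4, with hairpin #1 from 14 to 17 and from 3 to 3, with hairpin #3 from 14 to 15 and from 3 to 4, and between the hairpins from 0 to 1 and from 0 to 4. For pathway genes the ranges were 11 to 16 and 2 to 2 pooled, 12 to 14 and 2 to 2 with hairpin #1, 14 to 17 and 2 to 4 with hairpin #3, and 1 to 2 and 0 to 0 between the hairpins. Without a fold threshold the higher pathway genes numbered 27 pooled, 28 with hairpin #1 and 28 with hairpin #3, the lower ones 4 with hairpin #3, the lower collagen genes with hairpin #1 5, and between the hairpins 1 collagen gene was higher and 4 lower, and 3 pathway genes higher and 3 lower. Without the 3 A libraries 1 pathway gene was lower in each comparison with control, and 1 collagen gene was higher and 4 lower between the hairpins. After subtraction of the neighbors 1 pathway gene was lower with hairpin #3. Between the hairpins, 3 collagen genes were higher with no filter on low counts and 1 with the DESeq2 Wald test, and 1 was lower at an adjusted p under 0.01; 2 pathway genes were higher with no filter and 0 with a mean of at least 1 CPM, where MMP1 was not tested. The causes were not tested.

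Libraries with the same letter had deviations from their group means that correlated at 0.057 to 0.523, beside -0.499 to 0.213 for different letters. Of the 9 same-letter pairs 7 were over 0.1, and 7 of 9 libraries correlated best with a library of their own letter. The labels name replicates A, B and C but state no pairing, so the main fits used no block. A part shared by libraries of the same letter may therefore remain in the spread of the main fits. With the replicate letter as a block, 3 collagen genes were higher between the hairpins (COL1A1 1.17, adjusted p = 0.00963; COL3A1 1.66, 0.0153; COL17A1 1.22, 0.0397), COL7A1 was also lower (-1.10, 0.00231), and COL4A1 with hairpin #1 was at 0.98. The block moved the other counts of calls by less than 1.5 times. COL24A1, COL8A2 and COL3A1, at means under 1 CPM in control, rest on few counts.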
